A study of Homo sapiens with 4 samples.

Results

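The MHC class II genes and their transcriptional coactivator CIITA were examined in xenografts of SEM in immunodeficient mice. SEM is a human cell line of B-cell precursor acute lymphoblastic leukaemia and carries the KMT2A-AFF1 (MLL-AF4) fusion gene. The set was given as 10 gene symbols and not chosen by a cut-off on expression, but earlier results of these data were known when it was chosen. It holds CIITA, the invariant chain gene CD74, the classical chain genes HLA-DRA, HLA-DRB1, HLA-DPA1, HLA-DPB1, HLA-DQA1 and HLA-DQB1, and the peptide-exchange genes HLA-DMA and HLA-DMB. Each symbol matched a single row among the 65217 human genes in the count table, by its primary-assembly identifier, and all 10 passed the filter on low counts. There were 2 libraries of leukaemic cells retrieved from brain (the protocol names the leptomeninges) and 2 of leukaemic cells retrieved from spleen. All 4 come from the same line, kept before transplantation at 25 mM glucose and 21% oxygen, and the labels name no drug treatment of the mice. The hosts were 6 to 10 weeks old, their strain is not stated in the labels, and every library is a pool of RNA from 5 animals. The experiment was done on 2 occasions, numbered as replicates 1 and 2, so the spread between libraries is between pools and not between single mice.

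MHC class II molecules are pairs of an alpha and a beta chain that hold peptides from the endosome and show them to CD4+ T cells. B-lineage cells are among the few cell types that make them without outside stimulation. The invariant chain CD74 fills the groove of new class II molecules and guides them to the endosome, where HLA-DM exchanges the remaining fragment for peptide and HLA-DO restrains HLA-DM. CIITA does not bind DNA itself. It is recruited to class II promoters by the RFX proteins, CREB1 and NF-Y, which sit on the neighbouring X and Y boxes, and its amount is known to limit class II transcription.

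The X and Y letters of the promoters are shown because they are the sequence feature that the class II genes are known to share. RefSeq promoter windows on GRCh38.p14, from 250 bases before to 50 bases after each gene start, were found for 8 of the 10 members. CIITA and HLA-DRA had no entry. In the lines below the first capitals mark the X-box-like letters and the second the Y-box-like letters, all read 5′ to 3′ on the strand of the gene.
CD74 (chr5:150412951-150413001, minus strand): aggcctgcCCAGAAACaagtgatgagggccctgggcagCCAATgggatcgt
HLA-DRB1 (chr6:32589882-32589937, minus strand): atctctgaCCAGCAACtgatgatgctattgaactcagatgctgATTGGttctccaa
HLA-DPA1 (chr6:33073702-33073758, minus strand): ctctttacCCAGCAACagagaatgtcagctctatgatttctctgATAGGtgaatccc
HLA-DPB1 (chr6:33075848-33075903, plus strand): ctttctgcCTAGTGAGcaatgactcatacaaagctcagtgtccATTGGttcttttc
HLA-DQA1 (chr6:32637294-32637350, plus strand): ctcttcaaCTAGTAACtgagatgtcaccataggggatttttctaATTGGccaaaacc
HLA-DQB1 (chr6:32666733-32666788, minus strand): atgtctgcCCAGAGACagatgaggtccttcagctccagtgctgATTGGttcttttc
HLA-DMA (chr6:32953164-32953220, minus strand): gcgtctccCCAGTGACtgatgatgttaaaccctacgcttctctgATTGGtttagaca
HLA-DMB (chr6:32941070-32941126, minus strand): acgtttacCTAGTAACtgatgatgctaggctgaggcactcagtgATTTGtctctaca
HLA-DOA (chr6:33009646-33009702, minus strand): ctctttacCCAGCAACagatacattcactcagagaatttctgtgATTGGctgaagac
HLA-DOB (chr6:32817088-32817142, minus strand): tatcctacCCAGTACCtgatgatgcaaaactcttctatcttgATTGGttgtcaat

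HLA-DOA and HLA-DOB, which encode the chains of HLA-DO, are printed beside the members because their RNA did not behave alike, as described further down. The pattern CNAGNNAC, followed after 15 to 35 bases on the same strand by ATTGG or its reverse complement CCAAT, was written from class II promoters, so its presence in them is no result. It occurred in 7 of 15 class II windows (members and other class II genes, with HLA-DPA1 in 2 windows) and in 268 of 35116 promoter windows (0.763%). Alone, CNAGNNAC was present on either strand in 39.3% of all windows and ATTGG on either strand in 34.6%. The windows of HLA-DPA1, HLA-DPB1, HLA-DMB and HLA-DOB held the pair only when up to 1 mismatch was allowed in each element. For HLA-DPA1 the printed letters come from the window at 33073600 to 33073899. The most abundant transcript, HLA-DPA1-242, is annotated to start at 33080710, in the other window, which is not printed. It held 69.1% and 67.1% of HLA-DPA1 TPM in brain, against 69.2% and 90.2% in spleen. The pair in that other window had 1 mismatch in each element. These letters are descriptions of the windows and say nothing of which proteins were bound in these cells.

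All 10 members were higher in cells from brain than in cells from spleen without overlap between the libraries, and 5 of them passed the test across all genes: CIITA, HLA-DRA, HLA-DPA1, HLA-DMA and HLA-DMB. None was lower. The test was edgeR's quasi-likelihood test with Benjamini-Hochberg adjustment over 17075 genes, with calls at an adjusted p under 0.05. The called share of the whole table was 2.02%, made up of 1.63% with more RNA in brain and 0.387% with less. Separation of the libraries alone was common, since 30.2% of all genes had both brain libraries above both spleen libraries. The median log2 fold change, brain over spleen, was 1.49 over the 10 members and 0.04 over all genes tested. With the replicate number as a block all 10 members passed, where 7.48% of all genes were called higher in brain. The block leaves few degrees of freedom. Standard errors of abundant genes were then nearly alike (RFX5 0.196, SMARCA4 0.195, HDAC2 0.196), and that of HLA-DPB1 went from 0.30 to 0.22. Small p-values with the block thus draw largely on a spread pooled over genes. The members also ran in opposite order over the occasions at the sites, as described below, which a block cannot absorb. The calls depended on the setting. With a stricter filter on low counts CIITA alone kept its call, where 0.73% of 9591 genes were called higher. With the block and a correction for the trend with GC content and length together 6 members passed, and HLA-DRB1 (adjusted p = 0.081), HLA-DPB1 (0.197), HLA-DQA1 (0.168) and HLA-DQB1 (0.0574) did not. DESeq2 called 9 members higher and none lower, against 3.28% and 2.33% of all genes, and left out CD74, with the block as well (adjusted p = 0.124). At an unadjusted p under 0.05 all 10 were higher, against 10.7% of all genes higher and 9.94% lower. Fewer cells making a transcript and less transcript per cell cannot be told apart in these bulk libraries.

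CIITA (ENSG00000179583, chromosome 16, 10866222 to 10943021 on GRCh38, plus strand) had 159 and 135 CPM in the brain libraries, against 48.9 and 58.5 CPM in the spleen libraries. CPM are counts scaled to a library total of 1e+06, with TMM factors, and values are given for replicate 1 before replicate 2 throughout. Both brain libraries stood well above both spleen libraries, and the gap between the sites was far wider than the gap within either. The deposited CIITA count equals the sum of its transcripts without CIITA-210 in every library (5881 against 6101 with it in brain replicate 1), so these CPM lack that transcript, while the TPM given later include it. The log2 fold change was 1.45 ± 0.16 (SE, edgeR adjusted p = 0.00747, n = 2 each). CIITA was called in 14 of 14 alternative settings, with log2 fold changes from 1.28 to 1.60.

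CD74 (chromosome 5) lies apart from the HLA cluster and differed least of the members. It had 1784 and 1434 CPM in brain, against 720 and 1155 CPM in spleen. Spleen replicate 2 was much closer to the brain libraries than spleen replicate 1 was. At 0.78 ± 0.25 its log2 fold change stayed short of the threshold (edgeR adjusted p = 0.167, and 0.00349 with the replicate block). It moved with the spleen library used, to 0.43 (adjusted p = 0.0118) when spleen replicate 1 was left out and to 1.17 (adjusted p = 1.36e-05) when spleen replicate 2 was, and CD74 was called in 7 of 14 settings.

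HLA-DRA encodes the alpha chain common to all DR molecules. It had 527 and 385 CPM in brain, against 131 and 187 CPM in spleen, and rose by 1.52 ± 0.23 (edgeR adjusted p = 0.0366). HLA-DRB1, a highly variable DR beta chain gene, had 94.0 and 60.6 CPM in brain, against 25.5 and 41.7 CPM in spleen. For both genes the lowest brain library was above the highest spleen library, but the HLA-DRB1 libraries of each site lay further apart, and HLA-DRB1 did not pass, at 1.20 ± 0.33 (log2 fold change, adjusted p = 0.144, 4.08e-06 with the replicate block, and 0.081 with the block and the trend removed). HLA-DRB1 shares long stretches with its paralogs HLA-DRB5 and HLA-DRB6, and the counts were estimated against reference alleles, so the split of reads among the DRB genes is uncertain.

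The DP and DQ pairs showed the same order of libraries. HLA-DPA1, the DP alpha chain gene, had 224 and 172 CPM in brain, against 72.1 and 94.4 CPM in spleen, and rose by 1.25 ± 0.19 (edgeR adjusted p = 0.026). HLA-DPB1, the DP beta chain gene, had 111 and 74.8 CPM in brain, against 23.0 and 36.5 CPM in spleen. Its log2 fold change was larger than that of HLA-DPA1, at 1.64 ± 0.30, but so was its spread, and it did not pass (adjusted p = 0.0712, 2.02e-11 with the replicate block, and 0.197 with the block and removal of the GC and length trend). HLA-DPA1 and HLA-DPB1 start close together on opposite strands and overlap in the annotation, so reads in the shared stretch depend on the strand setting, which is not given in the sources used here. HLA-DQB1, the DQ beta chain gene, had 43.96 and 30.5 CPM in brain, against 6.89 and 12.4 CPM in spleen. It did not pass either, at 1.95 ± 0.35 on the log2 scale (adjusted p = 0.0679, 9.13e-14 with the replicate block, and 0.0574 with the block and the trend removed).

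HLA-DQA1, the DQ alpha chain gene, was the member with the fewest reads. Its estimated counts were 388 and 141 in brain, against 30 and 45 in spleen, or 10.5 and 4.13 CPM in brain, against 0.910 and 1.78 CPM in spleen. Brain replicate 1 alone held more of its reads than the other 3 libraries together. The log2 fold change of 2.46 ± 0.60 had the widest standard error of the 10 and did not pass (edgeR adjusted p = 0.128, 2.65e-09 with the replicate block, and 0.168 with the block and the trend removed). It ran from 1.63 without brain replicate 1, below HLA-DQB1 at 1.66, to 3.01 without spleen replicate 2.

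Both genes of the peptide-exchange factor HLA-DM passed. HLA-DMA had 40.4 and 31.8 CPM in brain, against 11.6 and 17.4 CPM in spleen, and rose by 1.32 ± 0.24 (edgeR adjusted p = 0.0411). HLA-DMB had 21.7 and 14.2 CPM in brain, against 4.09 and 5.11 CPM in spleen, and rose by 1.97 ± 0.26 (adjusted p = 0.0151). HLA-DMB libraries of the same site differed less in spleen than in brain.

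Levels can be compared between genes only per length, as TPM (the length-scaled level of each transcript, summed over the transcripts of a gene). Rows of alternate HLA haplotypes could not be named and were not summed. The levels of HLA genes may thus be too low against those of CD74 and CIITA. CD74 was the most abundant member at both sites, with 1839 ± 211 TPM in brain and 918 ± 236 TPM in spleen (SD, n = 2 each). HLA-DRA followed with 550 ± 100 TPM in brain and 164 ± 27.2 TPM in spleen, and HLA-DPA1 with 199 ± 26.9 TPM in brain and 67.6 ± 0.925 TPM in spleen. HLA-DPB1 (102 TPM in brain, 28.7 in spleen) and HLA-DRB1 (97.4 TPM in brain, 35.9 in spleen) could not be ordered at either site, because the ranges of their libraries overlapped. HLA-DMA (48.7 TPM in brain, 16.8 in spleen), CIITA (42.2 TPM in brain, 13.1 in spleen) and HLA-DQB1 (35.8 TPM in brain, 8.68 in spleen) came next. In brain the ranges of HLA-DMA and CIITA overlapped, as did those of CIITA and HLA-DQB1, and in spleen they were separate. HLA-DMB had 16.0 TPM in brain and 3.97 TPM in spleen. HLA-DQA1 was the lowest at both sites, with 7.68 TPM in brain and 0.925 TPM in spleen.

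**Figure D1:**
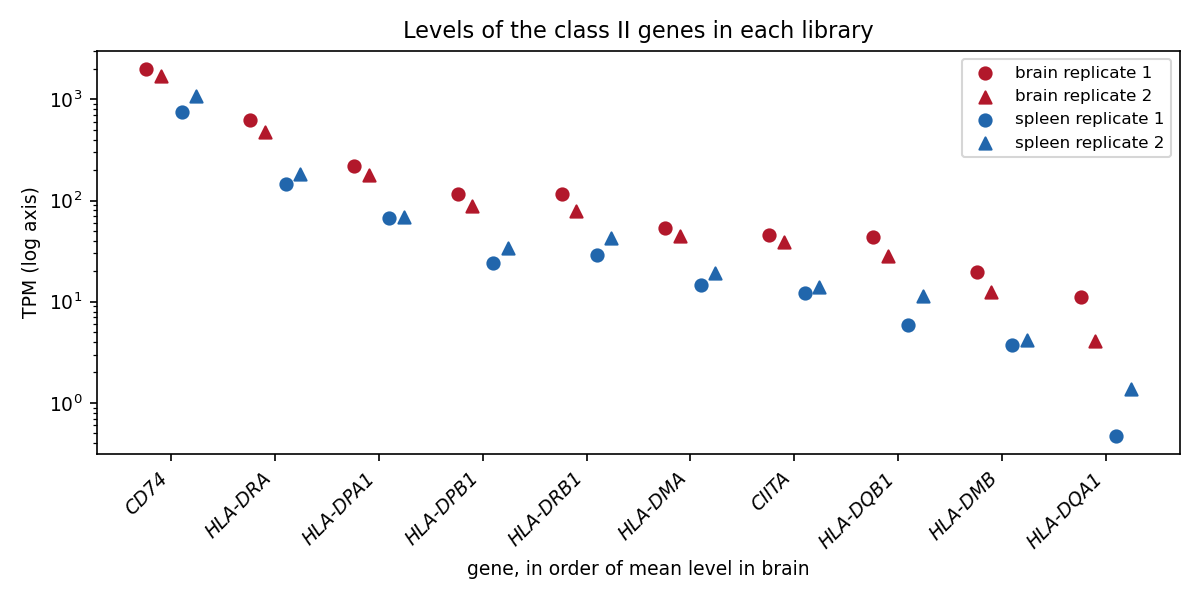
Level of each class II gene in each library, in TPM on a log axis, with genes in order of their mean level in brain. Red marks are the 2 brain libraries, blue marks the 2 spleen libraries, circles replicate 1 and triangles replicate 2; for every gene both brain marks lie above both spleen marks, from CD74 (1839 TPM mean in brain, 918 in spleen) to HLA-DQA1 (7.68 TPM in brain, 0.925 in spleen).

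The make-up of the class II message also differed between the sites. CD74 made up 61.5% and 63.9% of the summed TPM of the 10 genes in brain, against 71.3% and 74.1% in spleen. HLA-DRA made up 19.2% and 18.1% in brain, against 13.8% and 12.6% in spleen. There were thus 3.20 and 3.52 CD74 transcripts for each HLA-DRA transcript in brain, against 5.17 and 5.90 in spleen, and the libraries of the sites did not overlap. HLA-DRA stood at a like multiple of CIITA at both sites, 13.7 and 12.2 in brain, against 12.01 and 13.1 in spleen, with overlapping libraries. The ratio of HLA-DMA to HLA-DMB was 2.70 and 3.58 in brain, against 3.86 and 4.58 in spleen. These ratios are descriptions with no test. Shares and ratios that set HLA genes against CD74 or CIITA leave out any reads given to rows of alternate HLA haplotypes.

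The members moved together within each site as well as between the sites. Brain replicate 1 was above brain replicate 2 for 10 of 10 members, with a median log2 difference of 0.49, and spleen replicate 2 was above spleen replicate 1 for 10 of 10, with a median of 0.63. Among all tested genes with counts in every library, 55.4% were higher in brain replicate 1 than in brain replicate 2 and 49.1% higher in spleen replicate 2 than in spleen replicate 1. As a result the difference between the sites was wider on the first occasion than on the second for every member. Brain over spleen was 1.70 (log2) for CIITA on the first occasion and 1.21 on the second, 2.01 and 1.04 for HLA-DRA, 1.31 and 0.31 for CD74, and 3.53 and 1.21 for HLA-DQA1. Brain was the higher site for all 10 members on each occasion.

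**Figure D2:**
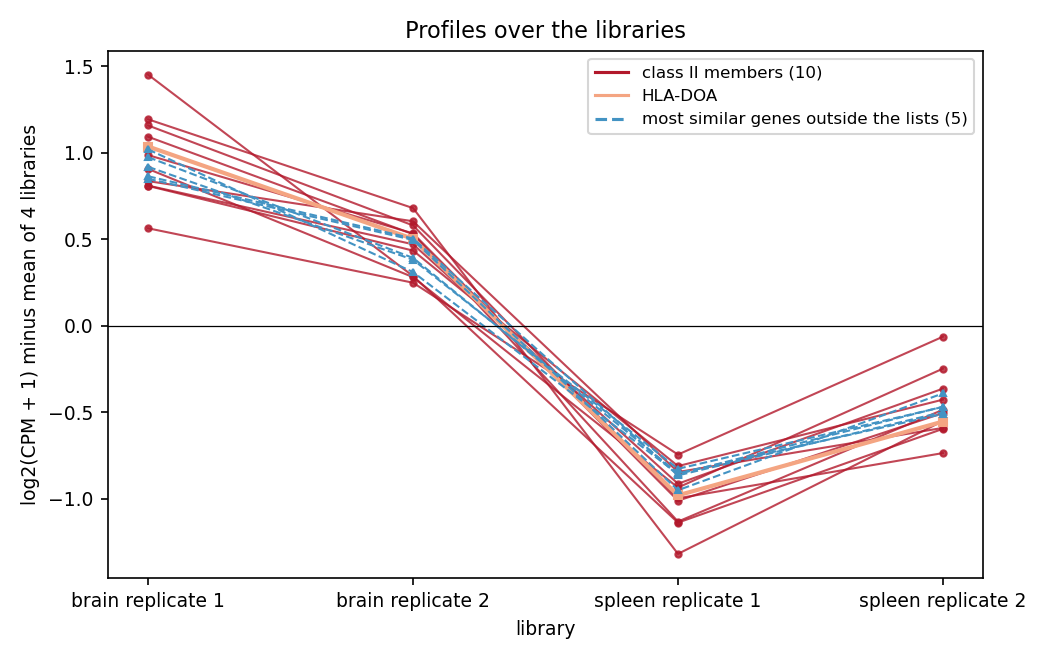
Profile of each gene over the 4 libraries, as log2(CPM + 1) minus the mean of the gene over the libraries; lines only link the values of the same gene. The 10 class II members (red), HLA-DOA (orange) and the 5 genes of most similar profile outside the gene lists (dashed blue) lie above 0 in both brain libraries and below 0 in both spleen libraries, with the highest values in brain replicate 1 and the lowest in spleen replicate 1.

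The genes whose profile lay nearest to the mean profile of the members were RAB11FIP4, JUN, AFF3, PPP1R16B and OAS2, in that order. They were chosen among 9993 protein-coding genes outside the lists, with at least 5 CPM on average, by Euclidean distance over the 4 libraries, and are given as a description. Their distances of 0.153, 0.160, 0.177, 0.189 and 0.204 compare with 0.0884 for HLA-DRA, the member nearest to the mean profile, and 0.658 for CD74, the farthest. The other members lay between 0.198 (HLA-DPB1) and 0.544 (HLA-DQA1), with CIITA at 0.278. All members but HLA-DRA were thus farther from that mean than RAB11FIP4, JUN, AFF3 and PPP1R16B, although each member is part of it. AFF3, a paralog of the fusion partner AFF1, had 69.7 and 54.1 CPM in brain, against 20.3 and 26.5 CPM in spleen. JUN, a subunit of the AP-1 transcription factor, had 24.6 and 16.1 CPM in brain, against 6.22 and 8.15 CPM in spleen. OAS2, an interferon-inducible antiviral enzyme, had 89.6 and 54.4 CPM in brain, against 23.7 and 31.3 CPM in spleen. With 4 libraries a profile has few degrees of freedom.

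Of 11 other class II genes and pseudogenes, 9 were in the count table under a matched identifier and 6 passed the filter on low counts. HLA-DOA, the alpha chain of HLA-DO, was the only gene of this list that was called, where 1.63% of all genes were called higher. It had 82.3 and 56.5 CPM in brain, against 19.6 and 26.7 CPM in spleen, and rose by 1.59 ± 0.24 (edgeR adjusted p = 0.0288). This call was lost when spleen replicate 1 was left out (adjusted p = 0.179) and likewise when spleen replicate 2 was (adjusted p = 0.158), where a lone spleen library was assumed to vary like the brain libraries. HLA-DOB, the beta chain of HLA-DO, named after its values were seen, had 0.919 and 0.585 CPM in brain, against 1.43 and 0.752 CPM in spleen, and the sites overlapped. Its log2 fold change was -0.54 ± 0.45 (adjusted p = 0.519), opposite in sign to that of its partner. HLA-DRB5, which shares reads with HLA-DRB1, had 16.4 and 9.63 CPM in brain, against 3.85 and 5.50 CPM in spleen (1.48 ± 0.32, adjusted p = 0.0714). The pseudogene HLA-DRB6 had 3.38 and 2.75 CPM in brain, against 0.880 and 1.90 CPM in spleen (1.16 ± 0.39, adjusted p = 0.157). With the replicate block 4 genes of this list passed, all higher in brain, where 7.48% of all genes were called higher. The antisense transcript HLA-DQB1-AS1 was among them, and its reads cannot be told from those of HLA-DQB1 without the strand setting. At an unadjusted p under 0.05 (edgeR, no block) 4 of the 6 tested were higher and 0 lower, against 10.7% and 9.94% of all genes.

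No call was made among the genes interspersed with or next to the class II genes on chromosome 6. Of 11 such neighbours outside the family, 10 were tested and 0 were called by edgeR, with or without the replicate block, or by DESeq2. At an unadjusted p under 0.05 the number was also 0, and their median log2 fold change was -0.11. BRD2, a chromatin reader encoded between HLA-DMA and HLA-DOA, had 356 and 341 CPM in brain, against 298 and 329 CPM in spleen, a log2 fold change of 0.15 ± 0.13. PSMB8, an immunoproteasome subunit encoded between HLA-DOB and HLA-DMB, had 162 and 153 CPM in brain, against 162 and 215 CPM in spleen (-0.25 ± 0.17). TAPBP, which serves peptide loading of class I molecules, had 177 and 170 CPM in brain, against 183 and 261 CPM in spleen (-0.35 ± 0.18).

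**Figure D3:**
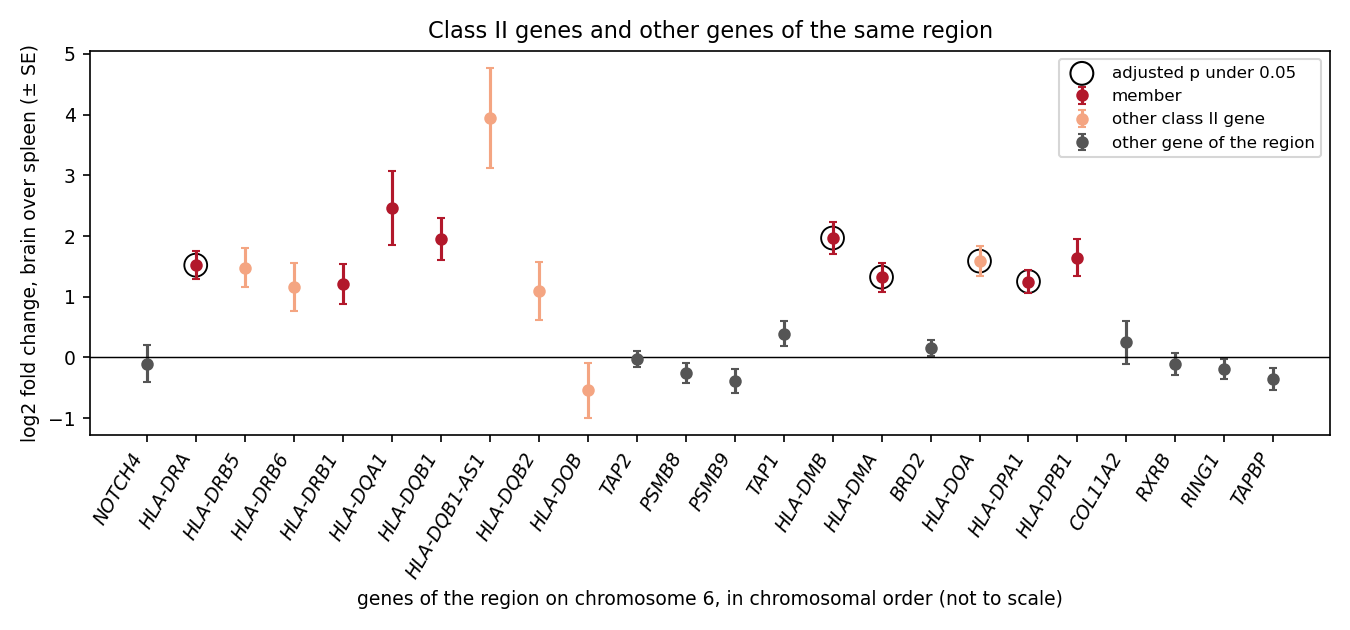
Log2 fold change, brain over spleen, with its standard error for the tested genes of the class II region, in chromosomal order and not to scale. Members (dark red) lie between 1.20 and 2.46, other class II genes (orange) between -0.54 and 3.94, and the other genes of the region (grey) between -0.39 and 0.39; open rings mark genes called at an adjusted p under 0.05.

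The genes of the proteins that bring CIITA to the X and Y boxes did not pass. Of these 7 enhanceosome genes 0 were called by edgeR, with or without the replicate block, or by DESeq2, and 1 was higher at an unadjusted p under 0.05, where 10.7% of all genes were. The median log2 fold change was 0.05. RFX5, the subunit of the RFX complex that contacts DNA, had 178 and 162 CPM in brain, against 140 and 129 CPM in spleen, a log2 fold change of 0.34 ± 0.14 (edgeR adjusted p = 0.221). NFYA, a subunit of the Y-box factor NF-Y, had 105 and 108 CPM in brain, against 87.7 and 86.2 CPM in spleen (0.29 ± 0.14, adjusted p = 0.267). CREB1 had 105 and 106 CPM in brain, against 97.9 and 54.6 CPM in spleen (0.47 ± 0.28, adjusted p = 0.409), and its 2 spleen libraries lay further apart than the sites did on average. The p-values above the threshold do not show that these genes were equal at the sites.

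Among 14 coactivators and chromatin partners of CIITA 0 were called by edgeR or DESeq2, while 4 were higher and 0 lower at an unadjusted p under 0.05 (10.7% and 9.94% of all genes). The median log2 fold change was 0.07. HDAC2, a histone deacetylase and the most abundant gene of the list, had 284 and 293 CPM in brain, against 366 and 258 CPM in spleen (-0.11 ± 0.18). SMARCA4, the ATPase of a chromatin remodeller, had 297 and 289 CPM in brain, against 279 and 317 CPM in spleen (-0.02 ± 0.14). HDAC1 had 215 and 216 CPM in brain, against 198 and 248 CPM in spleen (-0.05 ± 0.15). With the replicate block 1 gene was called, the histone acetyltransferase EP300, named after its values were seen (0.58 ± 0.15 without the block, edgeR adjusted p = 0.092, and 0.0344 with it).

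Of 15 transcription factors of B cells listed as regulators of CIITA transcription, 3 rose in brain and none fell. Of all genes 1.63% were called higher and 0.387% lower. At an unadjusted p under 0.05 (edgeR) 7 of the 15 were higher and 0 lower, against 10.7% and 9.94% of all genes. The median log2 fold change of the list was 0.41. IRF4, a lymphoid transcription factor of the interferon regulatory family, had 30.1 and 25.8 CPM in brain, against 5.55 and 6.45 CPM in spleen. Its brain libraries were several times as high as its spleen libraries, and it rose by 2.22 ± 0.19 (edgeR adjusted p = 0.00244). BCL6, a transcriptional repressor, had 6.19 and 3.34 CPM in brain, against 0.667 and 0.515 CPM in spleen, and rose by 2.99 ± 0.40 (adjusted p = 0.0155). ZEB1, a zinc-finger repressor, had 3.30 and 2.31 CPM in brain, against 0.789 and 0.435 CPM in spleen, and rose by 2.16 ± 0.39 (adjusted p = 0.0396). The roles of these 3 differ, since BCL6 and ZEB1 are known mainly as repressors. Estimated counts in spleen were few for both repressors, 22 and 13 for BCL6 and 26 and 11 for ZEB1.

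The most abundant factors of this list did not pass. PAX5, which maintains B-cell identity, had 901 and 806 CPM in brain, against 654 and 718 CPM in spleen (0.32 ± 0.14, edgeR adjusted p = 0.253). TCF3 had 446 and 479 CPM in brain, against 359 and 441 CPM in spleen (0.21 ± 0.15, adjusted p = 0.461). EBF1 had 362 and 342 CPM in brain, against 261 and 176 CPM in spleen (0.69 ± 0.20, adjusted p = 0.124). With the replicate block EBF1 and IKZF3 passed as well, which makes 5 of 15 higher, against 7.48% of all genes. DESeq2 called 4 higher, against 3.28% of all genes. IKZF3, named after its values were seen, had 17.9 and 14.8 CPM in brain, against 5.10 and 9.93 CPM in spleen. The libraries left out matter for these counts: over all lists outside the members, 4 genes were called, against 8 without brain replicate 2 (all higher, with 3.09% of all genes called). There were 45 without spleen replicate 1 (19 higher and 26 lower, with 37.9% of all genes called) and 30 without spleen replicate 2 (24 higher and 6 lower, with 17.3% of all genes called).

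Interferon gamma signalling, which induces CIITA in many cell types, held no called gene by edgeR. Of 14 listed genes 12 were tested, with a median log2 fold change of 0.14, and 3 were higher at an unadjusted p under 0.05, against 10.7% of all genes. IFNG itself had 0 counts in every library. JAK1 had 205 and 197 CPM in brain, against 161 and 154 CPM in spleen (0.35 ± 0.13, edgeR adjusted p = 0.188). IRF1 had 121 and 115 CPM in brain, against 115 and 148 CPM in spleen (-0.16 ± 0.16). NLRC5, the class I counterpart of CIITA, had 109 and 124 CPM in brain, against 120 and 132 CPM in spleen (-0.11 ± 0.14). The GTPase GBP2 was called higher with the replicate block and by DESeq2 and was named for that after its values were seen (1.23 ± 0.33, adjusted p = 0.105 without the block and 0.000635 with it).

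The later steps of antigen presentation held no gene called by edgeR either. Of 13 genes of endosomal proteolysis and peptide loading 12 were tested, with a median log2 fold change of -0.29, and 4 were lower and 0 higher at an unadjusted p under 0.05, against 9.94% lower and 10.7% higher of all genes. AP2M1, a clathrin adaptor subunit, had 218 and 220 CPM in brain, against 248 and 294 CPM in spleen (-0.31 ± 0.14). RAB7A, a GTPase of late endosomes, had 178 and 174 CPM in brain, against 186 and 204 CPM in spleen (-0.15 ± 0.13). The protease cathepsin B (CTSB) had 168 and 146 CPM in brain, against 167 and 218 CPM in spleen (-0.29 ± 0.17). With the replicate block, which called 3.37% of all genes lower, 2 genes of this list were lower in brain, the protease gene CTSH (-0.99 ± 0.22 without the block, edgeR adjusted p = 0.0679, and 0.00832 with it, and also called by DESeq2) and the protease inhibitor gene CST3 (-0.87 ± 0.26, adjusted p = 0.124, and 0.0306 with it), both named after their values were seen. Of 8 genes for class II turnover at the surface and partners of CD74, 6 were tested and 0 were called by edgeR or DESeq2, with 1 lower at an unadjusted p under 0.05. Among them CXCR4 had 354 and 380 CPM in brain, against 265 and 318 CPM in spleen (0.33 ± 0.15). CD44, a signalling partner of CD74, had 178 and 153 CPM in brain, against 141 and 133 CPM in spleen (0.28 ± 0.14). MIF, the ligand of CD74, had 262 and 254 CPM in brain, against 243 and 361 CPM in spleen (-0.23 ± 0.20).

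**Figure D4:**
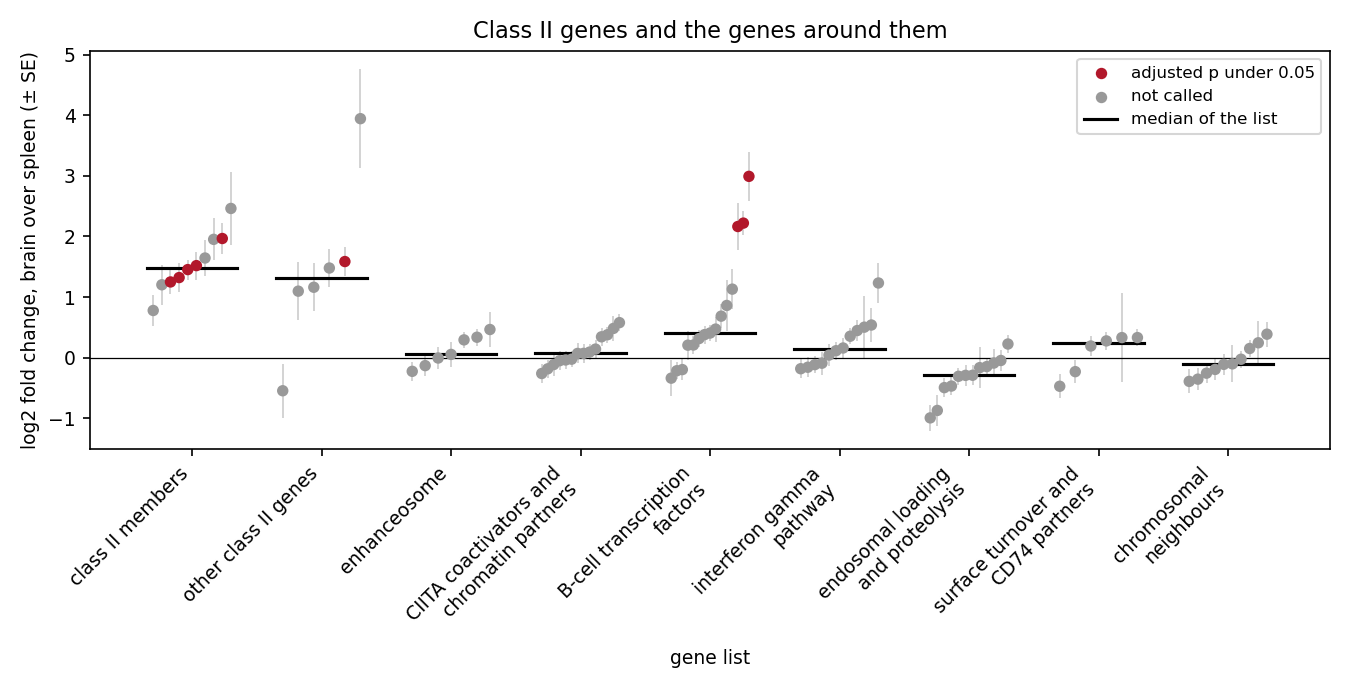
Log2 fold change, brain over spleen, with its standard error for each tested gene of the 10 class II members and of 8 further gene lists, sorted within each list; red points were called at an adjusted p under 0.05 and black bars are list medians. The class II members (median 1.49) and other class II genes (median 1.32) lie above the other lists, whose medians run from -0.29 to 0.41.

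Transcripts were examined in the same way. The transcript files held 75 transcripts of the 10 members, of which 51 passed the filter on low counts and 49 of these had a positive log2 fold change. None was called, and neither was any of the 59142 transcripts tested (0% called, edgeR, also with the replicate block). At an unadjusted p under 0.05 there were 29 member transcripts, all higher in brain, where 7.6% of all transcripts were higher. DESeq2 called 13 member transcripts higher, against 3.09% of all transcripts, and with the block 7, against 1.61%.

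CIITA is transcribed from several promoters that give proteins with different N-termini. Of 20 annotated CIITA transcripts 14 were in the files, and the transcripts that start furthest upstream in the annotation were not analysed here. A cluster of 8 transcripts that start between 10877198 and 10877331 held 74.8% and 74.7% of CIITA TPM in brain, against 75.4% and 66.9% in spleen. The 2 full-length forms of this cluster were the most abundant. CIITA-214, of 1131 residues, had 15.3 and 10.4 TPM in brain, against 3.68 and 3.05 TPM in spleen, a log2 fold change of 1.70 ± 0.29 (edgeR adjusted p = 0.170). CIITA-201, of 1130 residues, had 9.36 and 9.25 TPM in brain, against 2.998 and 3.37 TPM in spleen (1.29 ± 0.19, adjusted p = 0.158).

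The short form CIITA-212, annotated with 177 residues and a start at 10878969, was the named CIITA transcript with the widest gap between the sites. It had 5.14 and 4.08 TPM in brain, against 0.506 and 0.583 TPM in spleen, or 2.86 ± 0.52 on the log2 scale, and did not pass (edgeR adjusted p = 0.184). Its share of CIITA TPM was 11.4% and 10.4% in brain, against 4.18% and 4.14% in spleen. These values rest on few reads, 67 and 46 estimated counts in brain, against 6 and 6 in spleen. Among transcripts below the 5% share, the retained-intron form CIITA-209, named after its values were seen, had a wider gap. It had 89 and 102 estimated counts in brain, against 0 and 0 in spleen (9.43 ± 0.82, edgeR adjusted p = 0.148). CIITA-210, a fragment with no defined coding sequence at the far end of the gene, made up a smaller share in brain, with 8.71% and 9.55% of CIITA TPM in brain, against 13.0% and 13.5% in spleen. Its own level was 3.94 and 3.75 TPM in brain, against 1.57 and 1.89 TPM in spleen (0.88 ± 0.33, edgeR adjusted p = 0.361). CIITA-207 had 11.9% in spleen replicate 2 and at most 0.589% in the other 3 libraries, so its estimate rests on that library. CIITA-202 and CIITA-204 held between 5.84% and 10.0% in every library. Shares of transcripts that overlap as these do are estimates by the quantification program, and no test was made on them.

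Most CD74 message came from CD74-202, of 232 residues, which held 68.6% and 68.8% of CD74 TPM in brain, against 69.4% and 63.2% in spleen. CD74-203, of 160 residues, held 25.5% and 24.9% in brain, against 25.5% and 33.1% in spleen, where replicate 2 stood apart. Their log2 fold changes were 0.80 ± 0.26 and 0.47 ± 0.42, and neither passed (edgeR adjusted p = 0.326 and 0.679). The value of CD74-203 changed sign to -0.0281 without spleen replicate 1 and was 1.14 without spleen replicate 2.

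**Figure D5:**
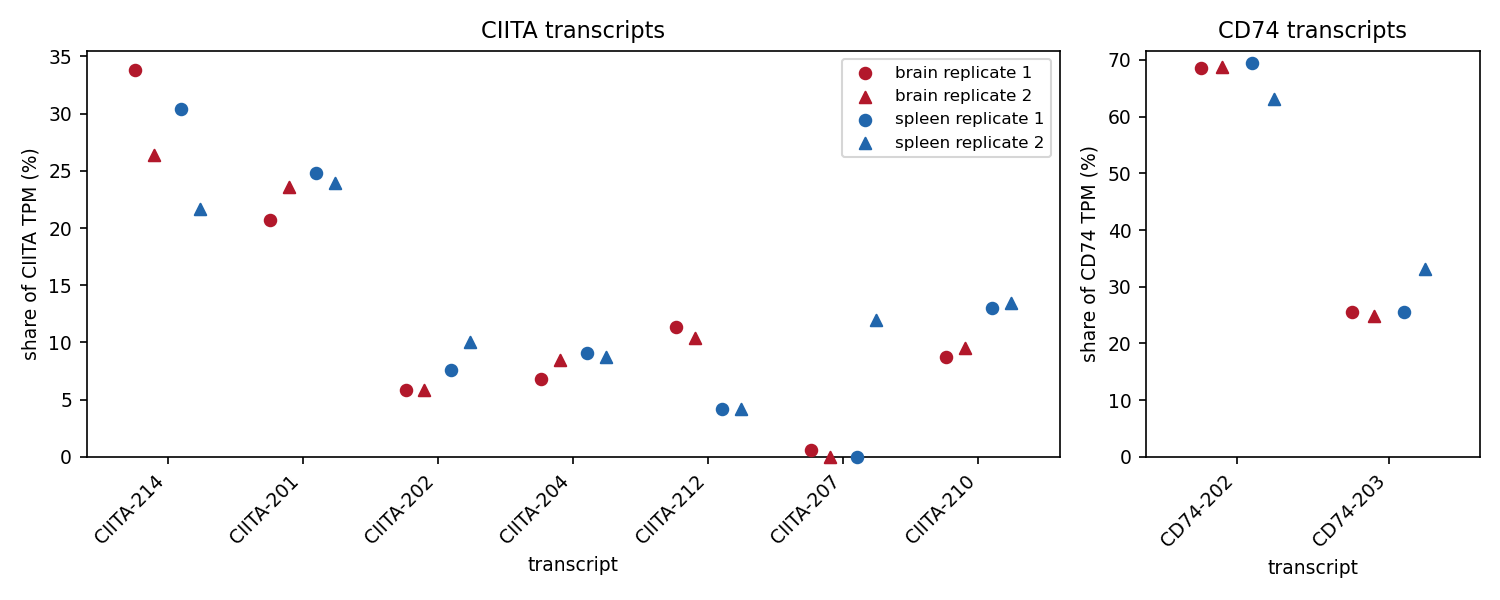
Share of each named transcript in the TPM of its gene, in percent, for CIITA (left) and CD74 (right), in each library; red marks are brain, blue marks spleen, circles replicate 1 and triangles replicate 2. CIITA-212 holds 11.4% and 10.4% in brain and 4.18% and 4.14% in spleen, while the shares of CIITA-201 and CD74-202 differ little between the sites.

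The libraries held between 26266136 and 36913437 gene counts. Mouse transcripts took 2.24% and 1.45% of the estimated counts in brain, against 4.31% and 6.32% in spleen. The B-lineage label was borne out, with all 10 markers detected, but CD22 was higher in brain (1.48 ± 0.19, edgeR adjusted p = 0.0147) and the progenitor marker CD34 lower (-1.37 ± 0.18, adjusted p = 0.0126). IGLL1 had 78.9 and 105 CPM in brain, against 8.86 and 21.5 CPM in spleen (2.61 ± 0.52, edgeR adjusted p = 0.119, and 1.04e-28 with the replicate block). The block lowered its standard error to 0.23, although its spleen libraries lay far apart. CD79B differed by 1.32 ± 0.27 (edgeR adjusted p = 0.0731, and 2.18e-08 with the block). With the block 4 of the 10 were higher and 1 lower, against 7.48% and 3.37% of all genes. Summed B-lineage markers were 2591 and 2432 CPM in brain, against 2096 and 2186 CPM in spleen. Of 12 myeloid markers 9 were tested and none was called, with sums of 113 and 87.1 CPM in brain, against 118 and 98.1 CPM in spleen. FCGR3A was at 0 in every library, and CD14 and P2RY12 were at or under 0.243 CPM. CLEC9A (49.5 and 41.9 CPM in brain, against 47.0 and 34.3 CPM in spleen), CSF1R (30.3 and 22.9 CPM in brain, against 29.0 and 26.2 CPM in spleen) and AIF1 (18.9 and 14.1 CPM in brain, against 25.2 and 19.9 CPM in spleen) made up most of the sum. With the replicate block CD68 was higher (1.73 and 0.703 CPM in brain, against 0.364 and 0.277 CPM in spleen) and TMEM119 lower (6.25 and 2.58 CPM in brain, against 9.86 and 11.7 CPM in spleen). T and NK cell markers (2 of 8 tested, none called, CD3D and CD2 at 0) summed to 62.5 and 53.5 CPM in brain, against 73.1 and 87.6 CPM in spleen. Plasma cell markers (4 of 6 tested, JCHAIN higher) summed to 588 and 598 CPM in brain, against 651 and 808 CPM in spleen. Markers of brain cells (2 of 12 tested, none called, SNAP25 and LUM at 0) summed to 132 and 118 CPM in brain, against 93.6 and 90.1 CPM in spleen, nearly all of it MBP. Markers of spleen stroma and erythroid cells (3 of 9 tested, none called) summed to 74.7 and 51.5 CPM in brain, against 34.8 and 31.5 CPM in spleen, mostly PECAM1. With the block PECAM1 and COL1A1 were higher and VWF lower. These marker genes were named after their values were seen. Of the marker lists without a call by edgeR, the myeloid list had 1 gene higher and 1 lower at an unadjusted p under 0.05, the T and NK cell list 1 lower, the brain cell list 1 higher and the spleen list 2 higher and 1 lower, where 10.7% of all genes were higher and 9.94% lower. DESeq2 called 1 myeloid marker lower and 1 spleen marker higher. With the trend of counts with GC content and length removed, 7 members passed, with log2 fold changes of 1.36 for CIITA, 1.59 for HLA-DRA and 0.95 for CD74. The part of the marker differences and of the mouse share in the class II result was not tested.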

How the data were processed

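Per the labels' protocols, a stranded mRNA kit was used for RNA sequencing, and bcl2fastq 1.8.4, cutadapt 1.5, kallisto 0.42.4 and DESeq2 with GRCh38 and GRCm38 are named in the submitters' processing notes. The settings used are not stated there. Estimated counts, rounded to whole numbers, make up the gene table that the authors deposited. Estimated counts and TPM per transcript were deposited by the authors for human and mouse together, with TPM scaled over both species. Among genes above 50 counts, 83.9% to 85.2% per library matched the sum of their transcripts to within 1 count. A count of 0 allows up to 3 counts (0.0813 to 0.114 CPM), a limit for counting error only, because reads that carry no molecular identifiers need not be separate molecules. A log2 table was not used, nor was 1 column of the count table whose name matches no sample.

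Symbols and positions came from GENCODE release 44, which matched 56322 identifiers (86.4%). Transcripts listed more than once were summed by identifier. Brain was compared with spleen by edgeR 4.0.16 (robust quasi-likelihood fit, TMM factors, filterByExpr, R 4.3.3), with Benjamini-Hochberg adjustment over all 17075 genes, or over all 59142 transcripts after rounding their estimated counts. The design had assumed whole counts, and the rounded estimates were tested as such. DESeq2 1.42.0, other scalings and filters, each library left out, removal of a GC and length trend (98.2% of genes had values) and gene sums of transcript counts were alternatives. The fits were run on simulated data with the same spread for every gene and library. The spread of these libraries differed between the sites, as given below, so that run cannot show how the fits behave on them. Fold changes are given as log2(brain/spleen), and their standard errors follow from the test statistic. No exact permutation test was used, since its smallest p with 2 libraries a site is 0.333.

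The libraries of a site differed by more than sampling noise (mean chi-square per gene 9.45 in brain and 67.9 in spleen) and each was counted as a replicate. The replicate number stands for an occasion of the experiment in the labels and so pairs a brain with a spleen library. Taken as deviations from the mean of their site, libraries of the same occasion correlated at 0.0299 (Pearson) and -0.0147 (Spearman) across genes, which are not independent. Nothing in the labels says that pools of the same occasion came from separate mice. The members, the gene lists and the tests were chosen with earlier results of these data known. Text names all members, the called and up to 3 most abundant genes of each list, and the 5 genes of nearest profile. It also names CIITA and CD74 transcripts with at least 5% of the gene's TPM in a library. Genes and transcripts said to be named after their values were seen are apart from this.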

Additional observations from a re-analysis of the deposited data

How the results depend on the processing

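Over the 14 alternatives the direction of every member was kept wherever it was tested (HLA-DQA1 in 13). Against 5 members, 4 list genes and 345 genes called in all, the numbers were 9, 8 and 957 by DESeq2, 10, 13 and 2123 without a filter on low counts, 1, 1 and 76 with at least 10 CPM in 2 libraries, and 10, 13 and 1853 with the replicate block. DESeq2 with the block called 9 members. Removal of the GC and length trend gave 534 genes in all (7 members), and with the block 1528, 9 list genes and 6 members. Leaving out a library gave 7 to 10 members, 4 to 45 list genes and 404 to 6807 genes in all. A lone library was then assumed to vary like the other site. The strict filter tested 9591 genes and ended the calls of HLA-DRA (adjusted p = 0.0826), HLA-DPA1 (0.0676), HLA-DMA (0.0958), HLA-DMB (0.0567) and HLA-DOA (0.0795). BCL6 and ZEB1, under 10 CPM in every library, were not tested with it and so also lost their calls. The cause of the other changes was not tested. Member transcripts called were 0, against 13 by DESeq2 (of 3516 called in all), 7 by DESeq2 with the block (of 1787) and 0 to 3 with a library left out (3 of 2214 without spleen replicate 1). CD74-203 changed sign without spleen replicate 1, with a range of -0.0281 to 1.14 over the libraries left out. Summed member TPM differed by 1.24 (log2) and summed CPM by 1.04. Rows of alternate HLA haplotypes could not be named from the reference tables, so summing them was not run. The lowest count of a member was 30 (HLA-DQA1, a spleen library).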
